A study of Mus musculus with 4 samples.

Results

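The 34 genes described here encode the ephrins, the Eph receptors that bind them, and 12 other receptor tyrosine kinases of the ErbB, MET, KIT, AXL and DDR families. They were chosen by name, as receptors and ligands upstream of the NCK adaptor proteins, out of 39179 genes in the deposited table of normalized counts. Efna5 had 2 rows, of which the one with reads was taken. Polyadenylated RNA came from the white fat pad that lies along the epididymis of mice and was sequenced in 2 libraries of Nck2-/- mice, whose genotype is given as Nck2 mutant (KO), and 2 libraries of Nck2+/+ mice (WT). All 4 libraries share a mixed genetic background. Age, diet and the altered part of Nck2 are not given in the sources used here, and the labels do not tell whether replicates are separate animals. All p-values here therefore describe the spread among these 4 libraries, which may be technical.

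Eph receptors are activated by ephrins on the surface of a touching cell. A-type ephrins are held in the membrane by a lipid anchor, whereas B-type ephrins span the membrane and signal back into their own cell when bound. NCK1 and NCK2 are adaptors whose SH2 domain binds phosphorylated tyrosines on activated Eph receptors, on B-type ephrin tails and on several growth factor receptors, and whose SH3 domains recruit regulators of the actin cytoskeleton. In fat, such receptors are known from the vessel wall, from stromal and immune cells and from adipocyte precursors.

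The libraries held between 31831904 and 37980391 reads assigned to genes. Unless a scale is named, levels below are normalized counts, that is, reads divided by a size factor of the library. Fold changes are given as the difference of KO from WT in log2(normalized count + 1), with the standard error (SE) and limma's Benjamini-Hochberg adjusted p over 16710 genes. Nck2 itself was at 1076 and 947 in KO and at 1279 and 1667 in WT, with a log2 fold change of -0.53 (SE 0.16, adjusted p = 0.0509). It passed with DESeq2 (-0.54, adjusted p = 0.0204) and with a pseudocount of 5 (adjusted p = 0.0495). This total over the gene cannot check the labels, since the altered part is not known. The 2 groups differed widely in transcripts of other tissue. Of 17 tested genes of the epididymis and male tract 13 fell, most of which reached the minimum mean of 10 only through the WT libraries. The 25 genes of that list summed to 137 and 124 in KO and to 453603 and 396766 in WT. Crisp1 held most of the WT sums, at 343811 and 334537. Spink8 was also alike in WT replicates 1 and 2, at 42523.5 and 42542. By contrast Svs4 was at 11735 and 6.51 and Svs2 at 12085 and 63.3 there. Of the male tract genes 17 and 15 had no read in the KO libraries. Of 20 epithelial genes 18 fell, many of which also reached that mean only through the WT libraries. The summed level of the 20 was 5892 and 1778 in KO against 42936 and 50689.8 in WT. Krt5 and Ovol1, chosen after their values were seen, had no read in either KO library, whereas Krt7 and Krt14 overlapped between the groups. Smooth muscle and mural genes fell in 10 of 15, with sums of 46929 and 55136 in KO and 555560 and 727047 in WT. Mature adipocyte genes rose in 15 of 20, macrophage genes in 16 of 20 and endothelial genes in 14 of 17. Among all 16710 genes tested, 22.4% rose and 24.4% fell. In such bulk samples fewer cells of a type and less RNA per cell cannot be told apart. The part of these differences in the results below was not tested.

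**Figure D1:**
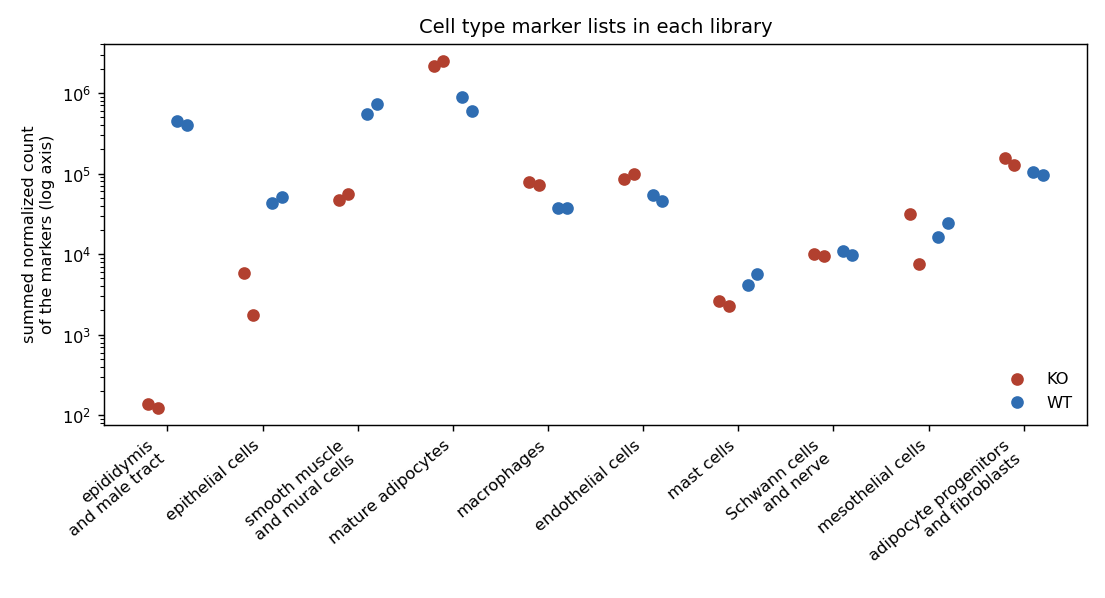
Summed normalized count of the markers of 10 cell types (log axis) in each library, with the KO libraries (red) left of the WT libraries (blue). Male tract, epithelial and smooth muscle sums were lower in KO, adipocyte, macrophage and endothelial sums were higher, and the mesothelial sum was at 31853 and 7601 in KO, on either side of 16199 and 24275 in WT.

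Of the members, 30 reached the minimum mean of 10 normalized counts and were tested, and 4 of them rose in KO (Efnb1, Ephb2, Mst1r and Ddr2) and 11 fell (Efna3, Efna4, Efnb2, Efnb3, Epha1, Epha3, Epha7, Erbb2, Erbb3, Erbb4 and Tyro3). That is 50.0% of those tested, close to the 46.7% called among all 16710 genes. Members rose in 13.3% of cases against 22.4% of all genes, and fell in 36.7% against 24.4%. Epha7 and Erbb4 passed the filter on low values only through the WT libraries, which leaves 9 falls among the others. The median log2 fold change of the tested members was -0.43, beside -0.01 for all genes. KO and WT did not overlap for 28 of the 30, with KO above in 13 and below in 15. Among all genes tested 79.5% did not overlap, 38.9% with KO above and 40.6% with KO below. Without WT replicate 1 the counts were 2 higher and 4 lower, and without WT replicate 2 they were 2 and 2. Those fits assume that the lone WT library varies like the KO libraries. They have 3 libraries and fewer residual degrees of freedom, as do the fits without a KO library, which lost fewer member calls. The 4 members under the filter were Epha5, Epha6, Epha8 and Epha10, which had at most 8 reads in any library.

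**Figure D2:**
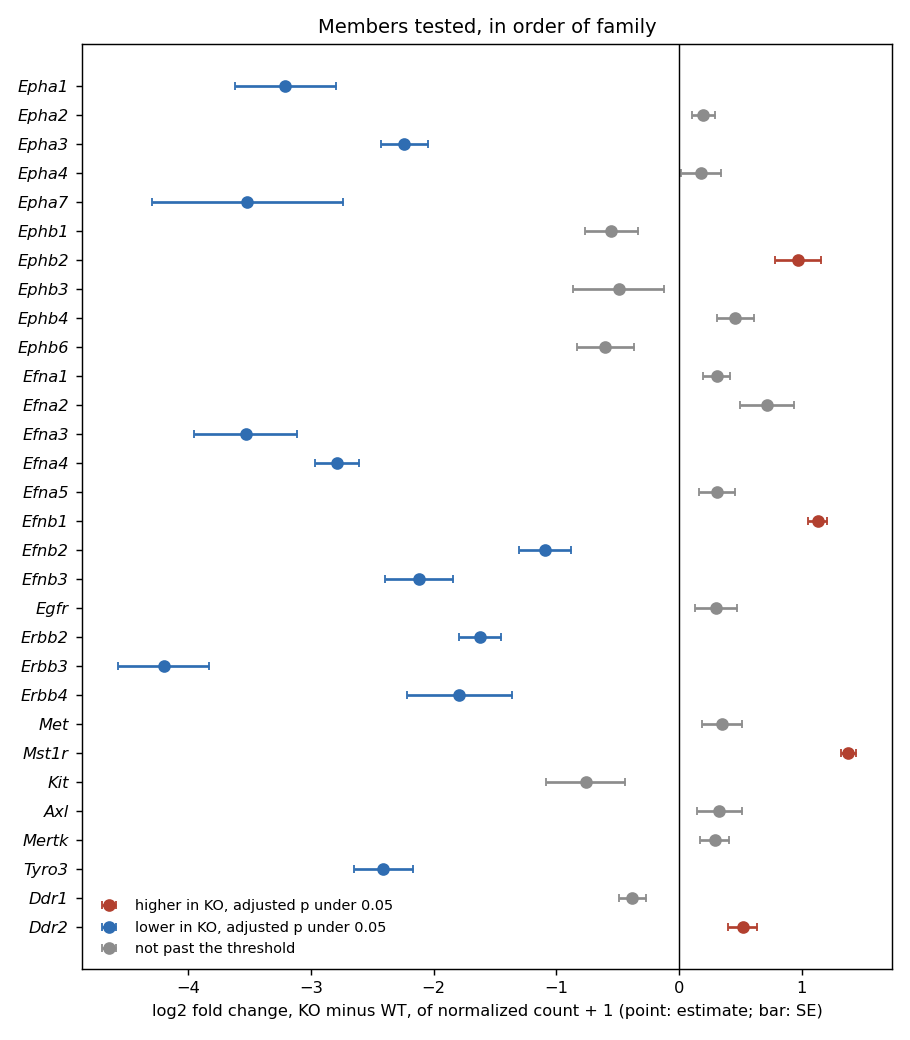
Log2 fold change (KO minus WT) of each of the 30 members tested, with its SE as a bar, in order of family. Values run from -4.20 for Erbb3 to 1.38 for Mst1r, and the 4 members past the threshold on the right are Ephb2, Efnb1, Mst1r and Ddr2.

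Levels were compared between genes as RPKM, which divides reads by exon length in kilobases and by the library's assigned reads. Axl was the highest member in both groups, at 50.4 and 34.3 in KO and at 35.4 and 40.6 in WT. Ddr2 followed in KO at 30.9 and 24.0, and Efnb1 came next at 22.6 and 22.5, and these 3 did not overlap. The members after them in KO, Ephb4 (14.9 and 18.5), Ddr1 (15.4 and 17.3) and Mst1r (15.6 and 14.7), did not differ beyond their spread. In WT the order after Axl was Ddr1 at 22.8 and 25.7 and Ddr2 at 20.7 and 22.9, which overlapped. Ephb4 stood at 13.3 and 14.3 in WT, Erbb3 at 12.3 and 13.2, Erbb2 at 10.6 and 14.6, and Efnb2 at 11.4 and 13.5. Of these, Erbb2 and Efnb2 overlapped each other and both of the others, whereas Ephb4 and Erbb3 did not overlap. Erbb3 was rank 22 of 34 in KO and rank 5 in WT, whereas Mst1r was rank 6 in KO and rank 13 in WT. Summed over all 34 members, the level was 218 and 194 in KO and 214 and 237 in WT, so the groups overlapped. The EphB sums also overlapped, at 21.8 and 25.3 in KO against 21.3 and 24.3 in WT. The ErbB sum, at 14.3 and 13.5 in KO against 33.4 and 35.6 in WT, did not.

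**Figure D3:**
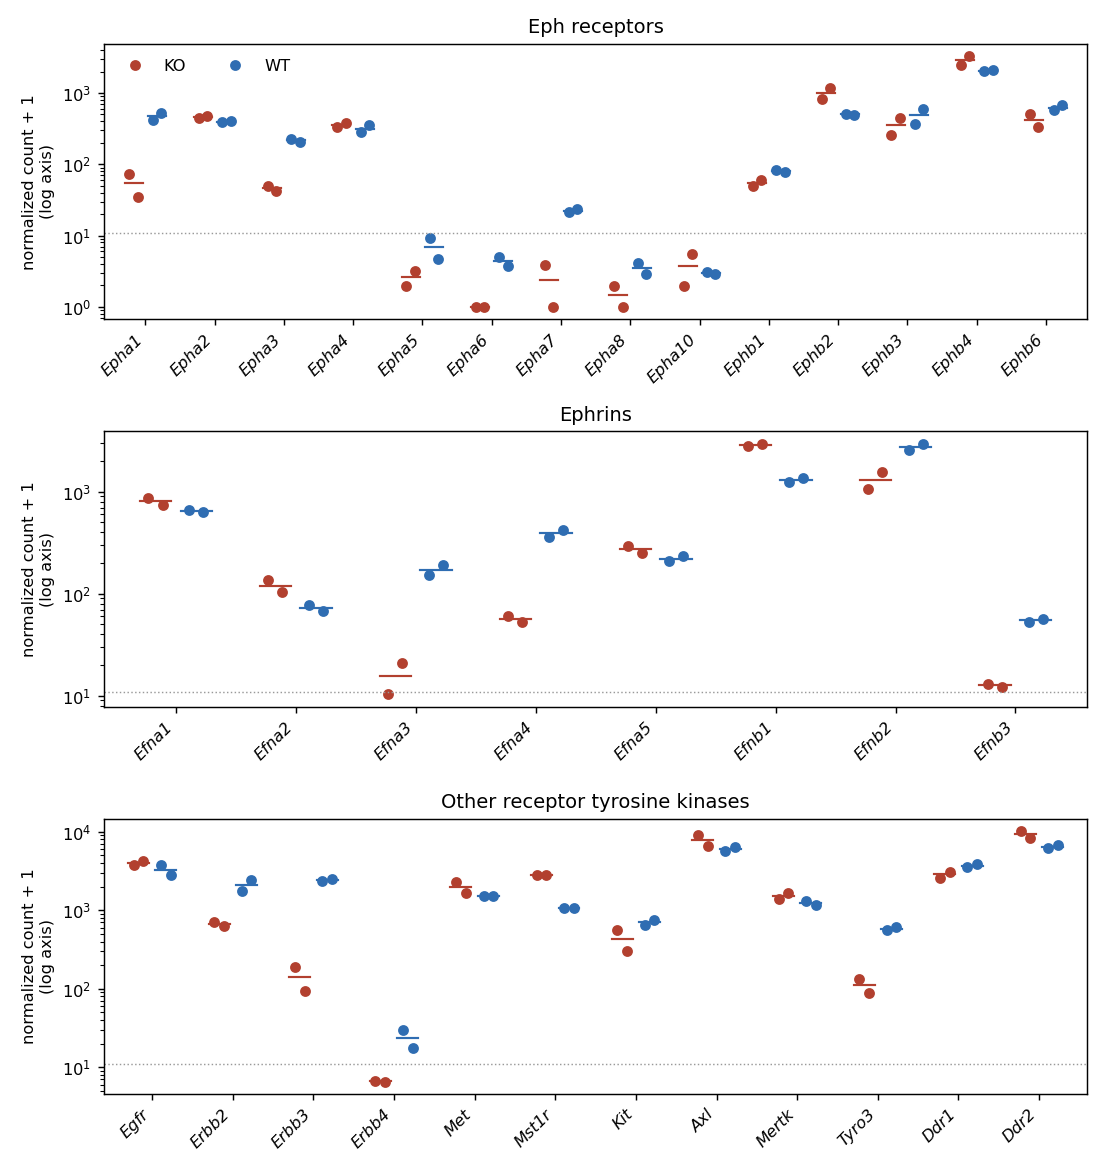
Normalized count + 1 of every member (log axis) in each library, with the KO libraries (red) left of the WT libraries (blue) and a line at each group's mean. The dotted line marks the filter, a mean of 10, under which Epha5, Epha6, Epha8 and Epha10 lie.

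Of the 5 A-type ephrins, Efna3 and Efna4 fell. Efna1, Efna3 and Efna4 lie side by side on chromosome 3 (GRCm38, reverse strand), Efna4 at 89333390 to 89338028, Efna3 at 89313899 to 89322965 and Efna1 at 89271733 to 89281142, with gaps of 10424 and 32756 bases. Their start regions are shown because 2 of these neighbours fell while Efna1 did not pass, and those of Efnb1 and Efnb2 because that pair changed in opposite directions. Each is the RefSeq window (GRCm38.p6) from 250 bases before to 50 after the start, written 5′ to 3′ on the gene's strand, at chr3:89337979-89338278 for Efna4, chr3:89322890-89323189 for Efna3, chr3:89280902-89281201 for Efna1 (these on the reverse strand), chrX:99135811-99136110 for Efnb1 (forward strand) and chr8:8661193-8661492 for Efnb2 (reverse strand). For Efna1 and Efna3, which have 2 windows each, the one further upstream is printed. Capitals mark matches on either strand to GGGCGG, the GC box, and to TATAAA, the TATA box.
Efna4: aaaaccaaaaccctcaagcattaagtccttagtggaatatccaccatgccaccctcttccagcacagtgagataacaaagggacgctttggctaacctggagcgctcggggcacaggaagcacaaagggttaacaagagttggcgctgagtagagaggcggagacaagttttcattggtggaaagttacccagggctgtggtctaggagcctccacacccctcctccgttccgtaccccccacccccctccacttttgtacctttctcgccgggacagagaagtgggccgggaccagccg
Efna3: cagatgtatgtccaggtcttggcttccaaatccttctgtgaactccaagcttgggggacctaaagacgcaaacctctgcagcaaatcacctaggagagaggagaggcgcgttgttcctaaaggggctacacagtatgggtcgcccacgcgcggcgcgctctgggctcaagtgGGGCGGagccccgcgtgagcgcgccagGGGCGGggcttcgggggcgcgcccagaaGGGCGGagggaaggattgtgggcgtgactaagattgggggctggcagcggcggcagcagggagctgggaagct
Efna1: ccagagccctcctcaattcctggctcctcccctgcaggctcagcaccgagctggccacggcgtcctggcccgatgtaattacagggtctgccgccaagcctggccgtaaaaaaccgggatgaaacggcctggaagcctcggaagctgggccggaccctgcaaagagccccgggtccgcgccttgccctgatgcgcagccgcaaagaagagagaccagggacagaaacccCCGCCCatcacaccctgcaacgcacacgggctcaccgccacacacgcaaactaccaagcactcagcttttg
Efnb1: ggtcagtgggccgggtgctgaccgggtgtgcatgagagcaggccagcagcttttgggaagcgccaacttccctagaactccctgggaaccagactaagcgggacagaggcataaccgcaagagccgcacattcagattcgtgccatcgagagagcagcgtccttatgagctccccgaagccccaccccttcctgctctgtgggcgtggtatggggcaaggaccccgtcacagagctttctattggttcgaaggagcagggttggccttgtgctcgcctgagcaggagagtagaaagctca
Efnb2: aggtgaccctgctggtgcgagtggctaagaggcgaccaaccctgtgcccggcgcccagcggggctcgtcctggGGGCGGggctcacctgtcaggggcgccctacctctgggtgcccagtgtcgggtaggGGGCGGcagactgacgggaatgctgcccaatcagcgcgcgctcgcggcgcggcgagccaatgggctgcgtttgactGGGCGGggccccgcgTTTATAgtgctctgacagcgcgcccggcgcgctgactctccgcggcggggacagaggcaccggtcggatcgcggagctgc

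The GC box was matched 3 times in the Efna3 window and once in that of Efna1, and had no match in that of Efna4. It was matched 3 times for Efnb2 and not at all for Efnb1. Of the 5 windows printed, that of Efnb2 holds the TATA match. The windows held 11 CpG dinucleotides in Efna4, 22 in Efna3, 20 in Efna1, 14 in Efnb1 and 35 in Efnb2. Across 40 windows of the 32 members matched by symbol, 75.0% held a GC box, against 35.7% of all 32851 windows and 46.2% of those of protein-coding genes, and 5.0% held a TATA box, against 13.6% and 12.6%. The Grainyhead motif AACCNGTT had 0 matches in the members' windows and was in 2.09% of all windows and 1.95% of protein-coding ones. The hormone receptor half-site AGAACA was in 5.0% of the members' windows, in 19.0% of all and in 16.2% of protein-coding ones. The members' windows were richer in G and C, with a median of 64.2%, against 52.7% for all windows and 56.3% for protein-coding ones. The part of this composition in the motif shares was not tested. Each motif was searched on both strands. The GC and TATA boxes share no letter, so their matches cannot overlap, and the other 2 motifs had no match in the printed windows.

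Efna4 was at 60.0 and 51.3 in KO and at 358 and 424 in WT, a log2 fold change of -2.79 (SE 0.18, adjusted p = 0.00135). Efna3 was at 9.37 and 20.1 in KO and at 152 and 189.8 in WT, a fold change of -3.53 (SE 0.42, adjusted p = 0.00485). Both KO libraries lay far below both WT libraries for each gene. Efna1, a ligand of EphA2 that was the highest A-type ephrin in both groups, was at 865 and 746 in KO and at 668 and 629 in WT. The groups did not overlap, but its fold change of 0.31 (SE 0.11, adjusted p = 0.0751) did not pass. Per kilobase of exon, Efna1 exceeded Efna4 by 12.6 and 12.7 times in KO and by 1.63 and 1.30 times in WT. Efna2 was at 135 and 104 in KO and 76.4 and 67.0 in WT (fold change 0.72, adjusted p = 0.0581). Efna5, a ligand that also binds EphB2, was at 293 and 252 in KO and 207 and 232 in WT (0.31, adjusted p = 0.15). Neither passed, and for neither did the groups overlap. Efna3 shares 344 exon bases with Gm15998 and Efna4 168 with 4731419I09Rik, both on the opposite strand. The sources used here do not say whether counting used strand, so reads in the shared bases cannot be assigned. Leaving out WT replicate 2 gave an adjusted p of 0.0509 for Efna4 (-2.67) and 0.0906 for Efna3 (-3.37), and without WT replicate 1 it was 0.0705 for Efna3 (-3.69).

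The B-type ephrins, whose tails bind the SH2 domain of NCK2, changed in opposite directions. Efnb1 (chromosome X, 99136130 to 99148991, GRCm38) rose. It was at 2776 and 2935 in KO and at 1248 and 1370.5 in WT, a log2 fold change of 1.13 (SE 0.078, adjusted p = 0.00155) that passed under all 12 alternatives. Efnb2 (chromosome 8, 8617434 to 8661242), which marks arterial endothelium, fell. It was at 1059 and 1553 in KO and at 2534 and 2943 in WT, with a fold change of -1.09 (SE 0.21, adjusted p = 0.0165). Within a library, and per kilobase of exon, Efnb1 exceeded Efnb2 by 5.21 and 3.75 times in KO, whereas the ratio was 0.978 and 0.925 in WT. This ratio does not depend on the scaling of the library. Efnb3 was low, at 12.2 and 11.2 in KO and 52.0 and 55.8 in WT, and fell by 2.12 (SE 0.28, adjusted p = 0.00614). The RPKM of the 3 B-type ephrins summed to 27.0 and 28.6 in KO and to 23.0 and 26.6 in WT, which was narrowly without overlap. In these libraries 10 of 15 smooth muscle and mural genes fell and 14 of 17 endothelial genes rose, and their part in the Efnb2 fall was not tested. Without WT replicate 1 the fold change of Efnb2 was -1.20 (adjusted p = 0.12), and without WT replicate 2 it was -0.98 (adjusted p = 0.17), and that of Efnb3 was -2.06 (adjusted p = 0.0548).

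**Figure D4:**
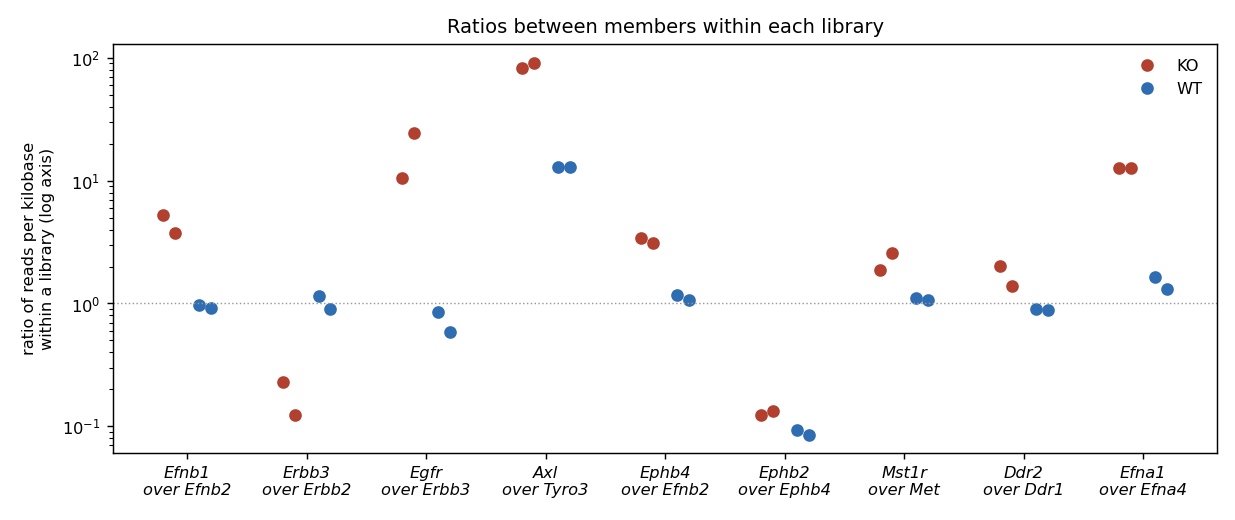
Ratio of reads per kilobase of exon between pairs of members (log axis) within each library, with the KO libraries (red) left of the WT libraries (blue). The pairs were chosen with results known, and all but Erbb3 over Erbb2, which was lower, were higher in both KO libraries than in either WT library. The ratio of Efnb1 over Efnb2 was at 5.21 and 3.75 in KO and at 0.978 and 0.925 in WT.

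Of 9 EphA receptors, 5 were tested, and 3 fell, while 24.4% of all genes tested fell. Of those that fell, Epha7 passed the filter on low values only through the WT libraries. Epha1, a receptor of epithelial cells, was at 73.1 and 33.5 in KO and at 423 and 515 in WT, a log2 fold change of -3.21 (SE 0.41, adjusted p = 0.00571). KO replicate 1 was the higher KO library for Epha1, and also for the epithelial list, at 5892 against 1778. In KO replicate 1 the largest part of that sum was Krt19, a gene also on the mesothelial list, at 2497 against 419.5. Genes of the list went both ways between the KO libraries, with Epcam at 12.2 and 8.93 and St14 at 61.8 and 142.8. The part of the epithelial genes in the Epha1 value was not tested. Epha3, a receptor known from developing mesenchyme and nerve, was at 48.7 and 41.3 in KO and 227 and 204 in WT (-2.24, SE 0.19, adjusted p = 0.00233). Epha7 had 3 and 0 reads in KO and 20 and 24 in WT. The WT level was 14.0 times that of KO, and counting error alone gave this ratio an exact 95% interval of 4.49 to 70.5. Its fitted adjusted p was 0.0248. Epha2, the EphA receptor with the highest level in KO, was at 438 and 472 in KO and 393 and 398 in WT (0.20, SE 0.097, adjusted p = 0.161). Epha4, which binds ephrins of both types, was at 336 and 373 in KO and 278 and 353 in WT, with overlapping groups (0.18, SE 0.16, adjusted p = 0.41). Epha5 had 1 and 2 reads in KO and 8 and 4 in WT, Epha6 had 0 and 0 in KO and 4 and 3 in WT, and Epha8 had 1 and 0 in KO and 3 and 2 in WT. The ratio of WT to KO was 3.82 for Epha5 (interval 1.03 to 21.1) and 4.77 for Epha8 (0.534 to 226), so a lower level in KO was not detectable at this depth for Epha8. A count of 0 allows up to 3 reads, and against that floor over the KO group Epha6 was 2.23-fold lower in KO, while the lower limit of its exact 95% counting interval was 1.38-fold. With no filter on low values it was called lower (-2.13, SE 0.44, adjusted p = 0.0241), and Epha5, Epha8 and Epha10 were not called. Epha10, which lacks kinase activity, had 1 and 4 reads in KO and 2 and 2 in WT. Epha1 shares 236 exon bases with the opposite-strand gene Zyx, which was at 4639 and 4451 in KO and 5648 and 6348 in WT. Leaving out WT replicate 1 gave an adjusted p of 0.0833 for Epha1 (-3.35), 0.0524 for Epha3 (-2.16) and 0.144 for Epha7 (-3.58), and without WT replicate 2 it was 0.106 (-3.07), 0.0577 (-2.32) and 0.166 (-3.45) in that order.

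The EphB receptors were all tested, and Ephb2 rose. Ephb2 was at 824 and 1176 in KO and at 514 and 489 in WT, a log2 fold change of 0.97 (SE 0.19, adjusted p = 0.0174). Both KO libraries were above both WT libraries, with a KO spread of 999.8 ± 249 against 501 ± 17.1 in WT (SD, n = 2 each). Ephb4, the receptor of venous endothelium that binds ephrin-B2, was the highest Eph receptor in both groups. It was at 2460.5 and 3246 in KO and at 2006 and 2108 in WT, and its fold change of 0.46 (SE 0.15, adjusted p = 0.0652) did not pass. DESeq2 gave 0.47 with an adjusted p of 0.0287, and without KO replicate 1 it was 0.66 (adjusted p = 0.015). Per kilobase of exon, Ephb4 exceeded its ligand Efnb2 by 3.43 and 3.09 times in KO and by 1.17 and 1.06 times in WT. Ephb6, which lacks kinase activity, was at 504 and 331 in KO and 572 and 669.9 in WT (-0.60, SE 0.23, adjusted p = 0.102, or 0.0244 with -0.90 without KO replicate 1). Ephb3 was at 256 and 444 in KO and 372 and 600.1 in WT, with overlapping groups (-0.49, SE 0.37, adjusted p = 0.329). Ephb1 was at 48.7 and 59.1 in KO and 81.5 and 76.3 in WT (-0.55, SE 0.22, adjusted p = 0.107). Of the 17 endothelial genes 14 rose, with sums of 84733 and 98000.4 in KO and 54290.4 and 45544 in WT. The part of that difference in the EphB values was not tested. The Ephb2 call was lost without WT replicate 1 (1.01, adjusted p = 0.139) and without WT replicate 2 (0.94, adjusted p = 0.167).

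Of the 4 ErbB receptors 3 fell, and Egfr did not pass. Of those that fell, Erbb4 passed the filter on low values only through the WT libraries. Among all genes tested 24.4% fell. Erbb3 (chromosome 10, 128567523 to 128589652, GRCm38), a neuregulin receptor with a weak kinase that signals through its partners, had the lowest fitted fold change of the members, on a scale that understates low genes such as Epha7. It was at 191 and 91.5 in KO and at 2393 and 2507 in WT, a log2 fold change of -4.20 (SE 0.37, adjusted p = 0.0024). Erbb2, the partner receptor that binds no ligand of its own, was at 719 and 637 in KO and 1785 and 2413 in WT (-1.62, SE 0.17, adjusted p = 0.00361), and passed under all 12 alternatives. Per kilobase of exon, Erbb3 was at 0.23 and 0.124 times Erbb2 in KO and at 1.16 and 0.9 times in WT. Erbb4, a receptor of neuregulins, had 6 and 5 reads in KO and 28 and 18 in WT (-1.79, SE 0.43, adjusted p = 0.0302). Its call was lost with DESeq2 (adjusted p = 0.0786), without KO replicate 1 (-1.80, adjusted p = 0.0851) and without KO replicate 2 (-1.79, adjusted p = 0.0912). Egfr, the receptor of EGF and related ligands, was at 3832 and 4227 in KO and 3814 and 2789 in WT. KO replicate 1 and WT replicate 1 were almost level, and the fold change of 0.30 (SE 0.17, adjusted p = 0.209) did not pass. Egfr exceeded Erbb3 by 10.6 and 24.5 times per kilobase in KO, whereas in WT the ratio was 0.846 and 0.591. Epithelial genes fell in 18 of 20, many of which passed the filter on low values only through the WT libraries. The part of that fall in the ErbB values was not tested. Epcam and Cdh1, chosen after their values were seen, were at 12.2 and 8.93 and at 19.7 and 12.3 in KO, against 3449.9 and 3498 and 3466 and 3930.0 in WT. Genes of Schwann cells and nerve, in which ERBB3 is the receptor for axonal neuregulin, fell in 10 of 14 and rose in 2, and all 14 had reads in every library. The 2 rises were not called by edgeR, which called 0 higher. The median over the list was -2.94. Its summed level overlapped, at 9980 and 9609.5 in KO and 10955 and 9885.5 in WT, and the 2 genes that rose held most of it. The part of these nerve genes in the Erbb3 value was not tested. Among them Sox10, a transcription factor of the Schwann cell lineage that was also chosen after its values were seen, had 16 and 6 reads in KO and 128 and 193 in WT (-3.80, SE 0.45, adjusted p = 0.00483). Its call was lost without WT replicate 1 (-4.02, adjusted p = 0.0662) and without WT replicate 2 (-3.57, adjusted p = 0.088). The Erbb3 call was lost without WT replicate 1 (-4.23, adjusted p = 0.06) and without WT replicate 2 (-4.17, adjusted p = 0.0732).

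Mst1r (chromosome 9, 107906873 to 107920383, GRCm38), which encodes RON, the receptor of macrophage-stimulating protein, had the smallest adjusted p of all members. It was at 2779 and 2787 in KO and at 1084 and 1056 in WT, a log2 fold change of 1.38 (SE 0.060, adjusted p = 0.000707). The replicates differed little, at 2783 ± 5.86 in KO against 1070.0 ± 19.9 in WT (SD, n = 2 each), and Mst1r passed under all 12 alternatives with fold changes of 1.36 to 1.4. It is expressed by resident macrophages and by epithelia. In the same libraries 16 of 20 macrophage genes rose, as did 15 of 20 mature adipocyte and 14 of 17 endothelial genes, while 18 of 20 epithelial genes fell. Many of those epithelial genes passed the filter on low values only through the WT libraries. Of all genes tested 22.4% rose and 24.4% fell. The macrophage genes summed to 77837 and 71759 in KO and 36886 and 36880.0 in WT. The part of these differences in the Mst1r rise was not tested. Its paralog Met, the receptor of hepatocyte growth factor, was at 2266 and 1658 in KO and 1516 and 1518 in WT (0.35, SE 0.16, adjusted p = 0.145). Without KO replicate 2 the fold change of Met was 0.58 (adjusted p = 0.0187). The mesothelial list summed to 31853 and 7601 in KO and to 16199 and 24275 in WT. Its part in the Met value was not tested. Per kilobase of exon, Mst1r exceeded Met by 1.88 and 2.58 times in KO and by 1.10 and 1.07 times in WT.

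Kit, the receptor of stem cell factor and a marker of mast cells, was at 557 and 302 in KO and at 639.8 and 758 in WT. The groups did not overlap, and the log2 fold change of -0.76 (SE 0.32, adjusted p = 0.118) did not pass. Leaving out KO replicate 1 gave -1.20 (adjusted p = 0.0147). Mast cell genes summed to 2653.5 and 2289 in KO and to 4084 and 5607 in WT. Without Gata2, a sum added after the data were seen, they overlapped, at 2170.9 and 1730.6 in KO and 1658.8 and 2610.7 in WT. Of the 11 tested, 1 rose and 1 fell, and the protease gene Cpa3, at 409.5 and 320.2 in KO and 325 and 586 in WT, overlapped between groups. Gata2, the gene of that list with the highest mean and also used outside mast cells, fell by 2.37 (SE 0.14, adjusted p = 0.00112). The 6 genes of the melanocyte list, another lineage that uses Kit, summed to 616.5 and 722 in KO and to 893.5 and 594.5 in WT, and so overlapped. Most of that sum was Mitf, at 583 and 615 in KO and 800 and 536 in WT. The sum therefore says little of the other genes of the list.

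Of the TAM receptors, a family that clears dying cells and has GAS6 and protein S among its ligands, Tyro3 fell. It was at 134 and 88.2 in KO and at 554 and 611 in WT, a log2 fold change of -2.41 (SE 0.24, adjusted p = 0.00306). As with Epha1 and Erbb3, KO replicate 1 was the higher of the KO libraries. Axl was at 9034 and 6533 in KO and 5777 and 6477 in WT, and its fold change of 0.33 (SE 0.18, adjusted p = 0.198) did not pass, although without KO replicate 2 it was 0.56 (adjusted p = 0.0411). Mertk, the receptor by which macrophages take up dying cells, was at 1383 and 1673 in KO and 1306 and 1184 in WT (0.29, SE 0.12, adjusted p = 0.117). The median over the macrophage list was 1.02, and its part in the Mertk and Axl values was not tested. Axl exceeded Tyro3 by 83.0 and 91.3 times per kilobase in KO and by 12.8 and 13 times in WT. The Tyro3 call was lost without WT replicate 1 (-2.48, adjusted p = 0.0646) and without WT replicate 2 (-2.34, adjusted p = 0.08).

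Of the DDR receptors, which are activated by collagen, Ddr2 rose. Ddr2, found in mesenchymal cells, was at 10179 and 8413 in KO and at 6205 and 6735 in WT, and rose by 0.52 on the log2 scale (SE 0.12, adjusted p = 0.0272). Ddr1, found mainly in epithelia, was at 2611 and 3119 in KO and 3534 and 3891 in WT. Its fold change of -0.38 (SE 0.11, adjusted p = 0.054) did not pass, but it did with TMM scaling (adjusted p = 0.0449), with DESeq2 (adjusted p = 0.0354) and without KO replicate 2 (-0.51, adjusted p = 0.0386). Per kilobase of exon, Ddr2 exceeded Ddr1 by 2.01 and 1.39 times in KO, whereas the ratio was 0.905 and 0.892 in WT. Of 7 collagen genes tested that encode DDR ligands, 4 rose, with a median of 0.80. Col5a1 was at 13266 and 13975 in KO and 5902 and 5045 in WT (1.32, SE 0.10, adjusted p = 0.00193). Col4a2, a basement membrane collagen, rose by 1.14 (adjusted p = 0.00707, or 0.0664 and 0.0962 without WT replicates 1 and 2). Of 15 progenitor and fibroblast genes, 7 rose, and their part in the Ddr2 rise was not tested. The Ddr2 call was lost without KO replicate 1 (0.38, adjusted p = 0.0673), without WT replicate 1 (0.46, adjusted p = 0.179) and without WT replicate 2 (0.58, adjusted p = 0.148).

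The ligands of these growth factor receptors were read from a list of 18 genes, of which 13 were tested, 3 rose and 4 fell. Egf, the ligand of EGFR, was at 59.0 and 59.1 in KO and at 1652 and 2077 in WT (-4.95, SE 0.15, adjusted p = 0.000551). The neuregulin genes Nrg1 and Nrg2, whose products bind ERBB3 and ERBB4, fell. Nrg1, which passed the filter only through the WT libraries, had 2 reads over both KO libraries and 88 over both WT libraries, so WT was at 42.0 times KO (exact 95% counting interval 11.3 to 352) with an adjusted p of 0.00814. Nrg2 was at 17.8 and 6.7 in KO and 154.9 and 161 in WT (-3.72, SE 0.49, adjusted p = 0.00627). Tgfa, another EGFR ligand, fell by 1.39 (adjusted p = 0.0495), a call that 4 of 12 alternatives kept, with adjusted p-values up to 0.293 and a change of -0.84 without KO replicate 2. By contrast Nrg4, a neuregulin secreted by adipocytes, was at 2060.4 and 3629 in KO and 1033 and 429 in WT and rose by 2.04 (SE 0.51, adjusted p = 0.0342), while its receptor Erbb4 had at most 6 reads in a KO library. The Nrg4 call was lost when any 1 library was left out, with fold changes of 2.44 and 1.63 without the first and the other KO library and 2.67 and 1.4 without the first and the other WT library. Btc, a ligand of EGFR and ERBB4, rose by 1.30 (adjusted p = 0.0119). Pros1, the gene of protein S, was at 4603 and 4501 in KO and 2313 and 2044 in WT (1.07, SE 0.083, adjusted p = 0.00192). Gas6, the other TAM ligand, did not pass (0.21, adjusted p = 0.327), nor did Hgf, the MET ligand (0.85, adjusted p = 0.0655), or Kitl, the KIT ligand (0.29, adjusted p = 0.054). DESeq2 called both (adjusted p = 0.0396 for Hgf and adjusted p = 0.0472 for Kitl), and without KO replicate 2 Hgf was at 1.21 (adjusted p = 0.0203). Kitl also passed with TMM scaling (adjusted p = 0.047) and without KO replicate 1 (0.39, adjusted p = 0.0443). Mst1, the RON ligand, was under the filter, with 2 and 1 reads in KO and 24 and 9 in WT. The calls of Nrg1 and Nrg2 were lost without WT replicate 1 (adjusted p = 0.0736 and adjusted p = 0.0858) and without WT replicate 2 (adjusted p = 0.0989 and adjusted p = 0.102).

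Across all 8 lists of ligands, adaptors, effectors and regulators, 113 genes were tested, 33 rose and 28 fell, which is 54.0% beside 46.7% of all genes. Among SH2 and SH3 adaptors 7 of 17 rose and 1 fell. The adaptor gene that fell was Grb7, a partner of ERBB2 and ERBB3, at 34.7 and 34.6 in KO and 682 and 627 in WT (-4.20, SE 0.15, adjusted p = 0.000567). Nck1, the paralog of Nck2, rose by 0.73 (SE 0.065, adjusted p = 0.00248). Of 15 exchange factors and GTPase regulators of Eph signalling 2 rose and 6 fell. Arhgef16 fell by 5.32 (adjusted p = 0.000551) and Arhgef15, an exchange factor of endothelial and neural cells, rose by 0.95 (adjusted p = 0.00613, or 0.0597 and 0.0884 without WT replicates 1 and 2). Of 17 kinases 5 rose and 3 fell, among them Pak1, an effector recruited by NCK (-2.18, adjusted p = 0.00206), and Src (-1.06, adjusted p = 0.00284). Of 11 partners of B-type ephrins 3 rose and 5 fell. Grip2 and Grip1, scaffold proteins that bind ephrin-B tails through PDZ domains, fell by 4.05 (adjusted p = 0.00305) and 3.83 (adjusted p = 0.00434), while without WT replicate 2 their adjusted p was 0.0671 and 0.056. Grip1 passed the filter on low values only through the WT libraries. Of 24 proteases and negative regulators 5 rose and 8 fell, and other receptors with NCK-binding sites rose in 4 of 9 and fell in 1. The phosphatase gene Ptprj fell by 0.63 (adjusted p = 0.00312) and the rhomboid protease gene Rhbdl2 fell by 2.86 (adjusted p = 0.00367). The vascular receptor genes Kdr and Tek rose by 1.30 (adjusted p = 0.00305) and 1.13 (adjusted p = 0.00368). Leaving out WT replicate 2 gave an adjusted p of 0.0527 for Ptprj, 0.0704 for Rhbdl2, 0.0586 for Kdr and 0.0664 for Tek, and without WT replicate 1 it was 0.0536 for Rhbdl2.

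In the authors' deposited table, 31 members had an adjusted p. At an adjusted p under 0.05, 5 of the 31 were higher and 11 lower in KO. Of all genes with an adjusted p there, 40.5% were called in either direction. Of the members called there, 14 were also called here. The authors' deposited table also called Ephb4 higher (log2 fold change 0.47, adjusted p = 0.0306) and Ddr1 lower (-0.37, adjusted p = 0.0396), and did not call Erbb4 (-1.80, adjusted p = 0.0728). Counting the recovered reads, edgeR called 4 of 30 members higher and 11 lower, and DESeq2 called 5 and 11 of the 30. Of all genes tested, edgeR called 45.4% and DESeq2 44.9% in either direction.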

How the data were processed

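RNA of epididymal white adipose tissue was sequenced in 4 libraries. Per the labels' protocols it was extracted with Trizol, purified on columns and made into TruSeq RNA libraries. The submitters' processing notes name the GRCm38 build and, as tools, DESeq2 1.4.5, HTSeq 0.5.3, TopHat2 2.0.10 and CASAVA 1.8. Each gene's signal as the authors deposited it is a normalized count, equal to reads divided by a size factor, beside a table of log2 fold changes, p-values and a score for the test statistic, each per gene. Whole reads were recovered for 100% of values (tolerance 0.01), with size factors of 1.0673 and 0.8962 for KO and 0.9815 and 1.0748 for WT. Intervals and floors cover counting error only, since the reads carry no molecular identifiers and need not be separate molecules.

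The test was limma 3.58.1 (R 4.3.3) with a trend over intensity, run where the mean normalized count was at least 10. It used log2(normalized count + 1), which understates changes of low genes, at a Benjamini-Hochberg adjusted p of 0.05. The fit was tested on simulated data. Members and lists were chosen with earlier results of these data known. The text names every member, the 4 ligand genes and, of each other effector list, the 2 genes with the smallest p (the rule fixed allowed 4), and the mast cell gene with the highest mean. Tgfa, Btc, Nrg4, Gas6, Hgf, Kitl and Mst1, ligands of members, were added after their values were seen. Exon lengths and positions came from GENCODE M21 (GRCm38), and 10 members share exon bases with another gene. Of the list genes, 1 was matched by identifier and 1 was unmatched. Promoter windows came from RefSeq. Tried instead were edgeR 4.0.16 and DESeq2 1.42.0 on recovered reads, TMM scaling, pseudocounts of 0.5 and 5, a minimum mean of 50, no filter, a replicate block, leaving out each library, and the longest transcript as gene length.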

Additional observations from a re-analysis of the deposited data

How the results depend on the processing

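No alternative tried reversed the direction of any member tested. Cpa3, a mast cell gene that was not called, was at -0.27 with all libraries and ran from -0.69 without WT replicate 1 to 0.16 without WT replicate 2. Pseudocounts of 0.5 and 5, no filter and edgeR kept all 15 member calls, and a minimum mean of 50 kept 12, those of the members that remained in the test. The counts of members higher and lower ran from 2 to 6 and from 2 to 12 when a library was left out. Over all genes they ran from 524 to 2846 and from 1061 to 3434, and over the 113 effector genes from 6 to 30 and from 5 to 23. More member calls were lost when a WT library was left out than when a KO library was. All these fits have 3 libraries and the same residual degrees of freedom. The labels do not pair the replicate numbers, and the deviations of same-numbered libraries had a correlation of -0.009. With the replicate block, 3 members were higher and 11 lower, with Ddr1 gained and Ddr2 and Erbb4 lost. Using the longest transcript moved the rank of 2 members by more than 2, Kit in KO (to 16, against 19) and Efnb2 in WT (to 4, against 7). Depth limits the 4 members with a mean under 10, which were tested without the filter alone, where Epha6 made 12 members lower.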
